A study of Mus musculus with 23 samples.

Results

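The mitochondrial ribosomal proteins are described here as the 77 genes whose symbol begins with Mrpl or Mrps followed by a number, among 24440 genes in the deposited table of estimated counts. They comprise 48 Mrpl genes, named for the large subunit, and 29 Mrps genes, named for the small subunit. The 77 genes passed edgeR's filter on low counts, with the lowest count in any library between 12 (Mrps36) and 470 (Mrpl12), and they were tested among 12891 genes. The rule used symbols and no measured value. The libraries came from perfused liver of male mice on a C57Bl/6 background, received at 6 to 8 weeks of age and then fed for 15 weeks. The 6 groups were wild type on normal chow (WT_chow) or on a high-fat diet with 60% of kcal from fat (WT_HFD), IL-4 knockout on either diet (IL4KO_chow, IL4KO_HFD) and IL-10/IL-4 double knockout on either diet (dKO_chow, dKO_HFD). Each group held 4 mice, except IL4KO_HFD with 3, and each library was made from 1 mouse. Both the IL-4 knockout and the double knockout lacked Il4 per the labels, which do not describe the alleles.

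Mitochondria carry ribosomes of their own, which translate the few mRNAs of the mitochondrial genome into core subunits of the respiratory chain and the ATP synthase. The ribosomal RNAs of these ribosomes are encoded in the mitochondrial genome, while their proteins are encoded in the nucleus, made in the cytosol and imported. Many of the proteins descend from bacterial ribosomal proteins and others have no bacterial counterpart, and in liver, an organ rich in mitochondria, they serve the supply of oxidative phosphorylation complexes.

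Promoter stretches are shown first because promoters of nuclear genes for mitochondrial proteins are known to carry sites for the factors NRF1, GABP (of the ETS family) and YY1. Each stretch is the 120 bases before the start site in RefSeq (GRCm38.p6, the build of the deposited data), read 5′ to 3′ on the gene's strand, with motif matches in capitals. Mrpl12 and Mrpl45 carry the NRF1 letters (GCGCA, any base, then GCGC), and Mrps18a and Mrps22 carry the ETS letters CCGGAAG. In Mrpl12 the NRF1 match lies on the opposite strand, so the capitals show its reverse complement, and in the other 3 genes the capitals read as the motif itself.
Mrpl12, chr11:120484517-120484636, plus strand: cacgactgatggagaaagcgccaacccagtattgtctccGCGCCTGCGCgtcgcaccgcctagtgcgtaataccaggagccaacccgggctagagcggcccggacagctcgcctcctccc
Mrpl45, chr11:97315596-97315715, plus strand: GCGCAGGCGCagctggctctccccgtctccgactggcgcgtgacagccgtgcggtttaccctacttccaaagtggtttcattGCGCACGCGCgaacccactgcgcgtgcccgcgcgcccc
Mrps18a, chr17:46110884-46111003, plus strand: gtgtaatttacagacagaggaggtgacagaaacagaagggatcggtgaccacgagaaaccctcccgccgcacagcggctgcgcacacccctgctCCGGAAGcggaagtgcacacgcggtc
Mrps22, chr9:98601680-98601799, minus strand: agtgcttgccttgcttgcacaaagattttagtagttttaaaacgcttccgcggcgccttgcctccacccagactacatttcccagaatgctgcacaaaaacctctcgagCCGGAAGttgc
Over windows from 250 bases before to 50 after the start, searched on both strands, 68 of the 77 genes had a RefSeq promoter. The NRF1 letters stood in 13 of these 68 genes (19.1%), against 5.19% of 27025 genes with a promoter. The ETS letters stood in 25 (36.8% against 9.93%), the YY1 letters AAGATGGC in 12 (17.6% against 3.19%), and the letters TCAAGGTCA, bound by estrogen-related receptors, in 0 (against 0.466%). Each motif was searched on its own, so matches of different motifs may share bases, and at least 1 of the NRF1 and ETS motifs was present in 34 of 68 genes (50%), against 13.99% of all genes with a promoter. The windows of these genes also had a higher GC content (median 58.5%) than the windows of all genes (median 52.67%), and the part of GC content in these shares was not tested. A match is a description of the letters and not a measured binding site.

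The labels were checked first. Il4 lay between 0 and 0.1436 CPM (counts scaled to a common library total, with TMM factors) in the 23 libraries, too low to check the Il4 deletion. Il10 went against its label: it was at 1.96, 2.001, 2.39 and 2.99 CPM in the 4 libraries labelled dKO on chow and at 0 to 0.185 CPM in the WT_chow libraries (edgeR FDR 3.1e-05), and "double knockout" and "dKO" below name the libraries so labelled. Il10 was also above WT_HFD in dKO_HFD (0.452, 0.330, 0.790 and 1.64 CPM, FDR 0.0108), and since the labels do not describe the allele, whether the counted reads lie in a deleted stretch is not known. Library totals ran from 7114454 to 30205070 estimated counts, highest in dKO_chow (16220799 to 30205070). Hepatocyte markers summed to 88630 to 149200 CPM in every library, as the tissue label states. FDR below is the p-value of edgeR's quasi-likelihood test with Benjamini-Hochberg adjustment over 12891 genes, two-sided, and a gene is called at an FDR below 0.05. Fold changes are log2, with standard errors (SE).

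In WT liver on chow the mRNAs of the 77 genes were at low to moderate levels. The mean per gene ran from 2.84 CPM for Mrps36 to 79.6 CPM for Mrpl12, with a median of 24.3 CPM. Per kilobase of the principal transcript in GENCODE M21, the levels ran from 2.02 CPM (Mrps25) to 75.4 CPM (Mrpl52), with a median of 19.1 CPM. The coefficient of variation over the 4 WT_chow mice had a median of 7.02% over the genes. Across groups, the mean log2 level of the 77 genes, centred on all libraries, was 0.115 ± 0.065 (SD, n = 4) in WT_chow, 0.075 ± 0.034 (n = 4) in WT_HFD and 0.054 ± 0.032 (n = 3) in IL4KO_HFD. It was -0.021 ± 0.022 in IL4KO_chow, -0.042 ± 0.061 in dKO_HFD and -0.168 ± 0.087 in dKO_chow (n = 4 each). The dKO_chow libraries were the lowest group by mean, from -0.274 to -0.071, below each WT_chow library (0.052 to 0.199) and overlapping dKO_HFD. As a plain share of the library's counts, without TMM factors, the 77 genes overlapped between WT_chow (0.192% to 0.216%) and dKO_chow (0.168% to 0.194%). WT_chow and WT_HFD overlapped, as did WT_HFD and IL4KO_HFD (0.035 to 0.091), and IL4KO_chow (-0.042 to -0.00034) lay within the range of dKO_HFD (-0.116 to 0.0084). These levels are given as a description, without a test.

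**Figure D1:**
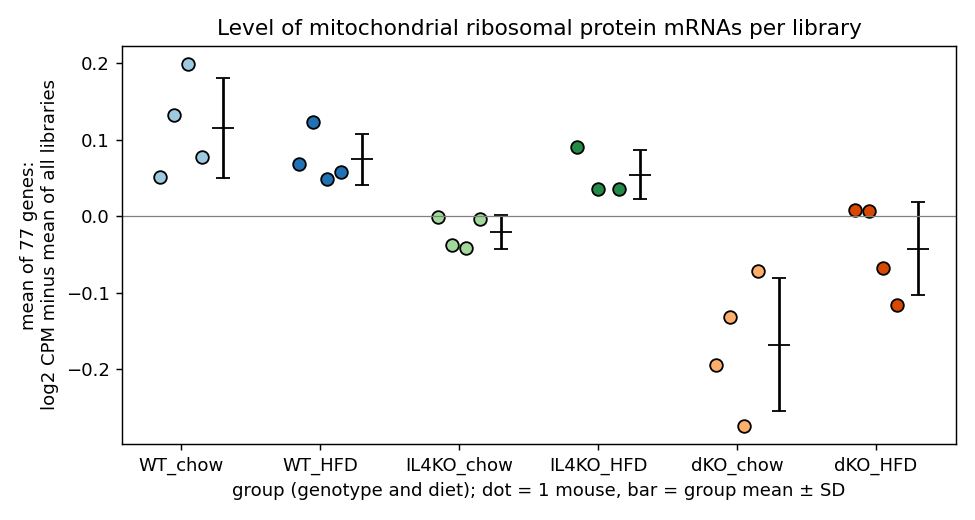
Mean log2 CPM of the 77 mitochondrial ribosomal protein genes in each library, centred gene by gene on all 23 libraries (vertical axis, log2), for the 6 groups of genotype and diet (horizontal axis). Dots are mice and bars are group means ± SD; the 4 dKO_chow mice sit between -0.274 and -0.071 and the 4 WT_chow mice between 0.052 and 0.199.

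Double knockout livers on chow had less mRNA of most mitochondrial ribosomal proteins than wild-type livers on chow. Of the 77 genes, 51 were called lower and 0 higher, beside 21.9% of all tested genes called lower, 24.4% called higher and 46.3% called in either direction. The log2 fold change was negative for 72 genes, with a median of -0.30 beside 0.02 over all tested genes, and ran from -0.70 for Mrpl1 to 0.22 for Mrpl19. The changes were modest in size. For 43 genes the CPM of the 4 dKO_chow mice did not overlap those of the 4 WT_chow mice, beside 43.9% of all tested genes.

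The largest decrease was that of Mrpl1, which forms the mobile L1 stalk beside the exit site for tRNA. Its level was 30.2, 30.01, 36.96 and 31.6 CPM in WT_chow and 21.4, 19.2, 19.6 and 19.1 CPM in dKO_chow. Each dKO_chow mouse lay below each WT_chow mouse, and the log2 fold change was -0.70 (SE 0.0954, FDR 8.56e-06). Mrpl14, a conserved protein of the subunit interface, was at 30.5, 26.01, 34.4 and 29.97 CPM in WT_chow and 18.1, 23.2, 17.9 and 18.4 CPM in dKO_chow. The groups did not overlap, although 1 dKO_chow mouse stood above the other 3 (log2 fold change -0.64, SE 0.101, FDR 4.09e-05). Mrps10, a protein of the head of the small subunit, was at 11.6, 10.8, 14.04 and 10.3 CPM in WT_chow and 6.89, 8.24, 7.64 and 7.47 CPM in dKO_chow. Here too the groups were separate (log2 fold change -0.62, SE 0.109, FDR 0.000111). Mrps35, a small subunit protein without a bacterial counterpart, had the second lowest FDR. It was at 23.8, 19.9, 23.5 and 22.4 CPM in WT_chow and 17.1, 15.4, 14.8 and 16.3 CPM in dKO_chow, again without overlap (log2 fold change -0.49, SE 0.0735, FDR 2.23e-05). Mrpl21 was the fourth by size, at 8.97, 9.05, 8.70 and 7.33 CPM in WT_chow and 6.13, 5.86, 5.14 and 6.44 CPM in dKO_chow (log2 fold change -0.53, FDR 0.00106).

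Lower levels were found in both subunits and in proteins of either descent. Of the 48 Mrpl genes 34 fell, and of the 29 Mrps genes 17 fell. Among large subunit proteins with a bacterial counterpart 23 of 30 fell (median -0.30), and among those specific to mitochondria 12 of 20 fell (median -0.30). In the small subunit 10 of 16 proteins with a bacterial counterpart fell (median -0.29) and 6 of 10 specific to mitochondria (median -0.34). In these lists Mrps18a and Mrps18b, paralogs of bacterial S18, were counted as specific to mitochondria. Of the 77 log2 fold changes 5 were positive, those of Mrpl36, Mrps15, Mrpl54, Mrpl43 and Mrpl19, named after their values were seen, and they were not called. Mrpl19, a large subunit protein, was at 12.02, 11.99, 12.2 and 13.1 CPM in WT_chow and 13.9, 15.3, 15 and 12.98 CPM in dKO_chow, groups that overlapped (log2 fold change 0.22, FDR 0.0572).

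**Figure D2:**
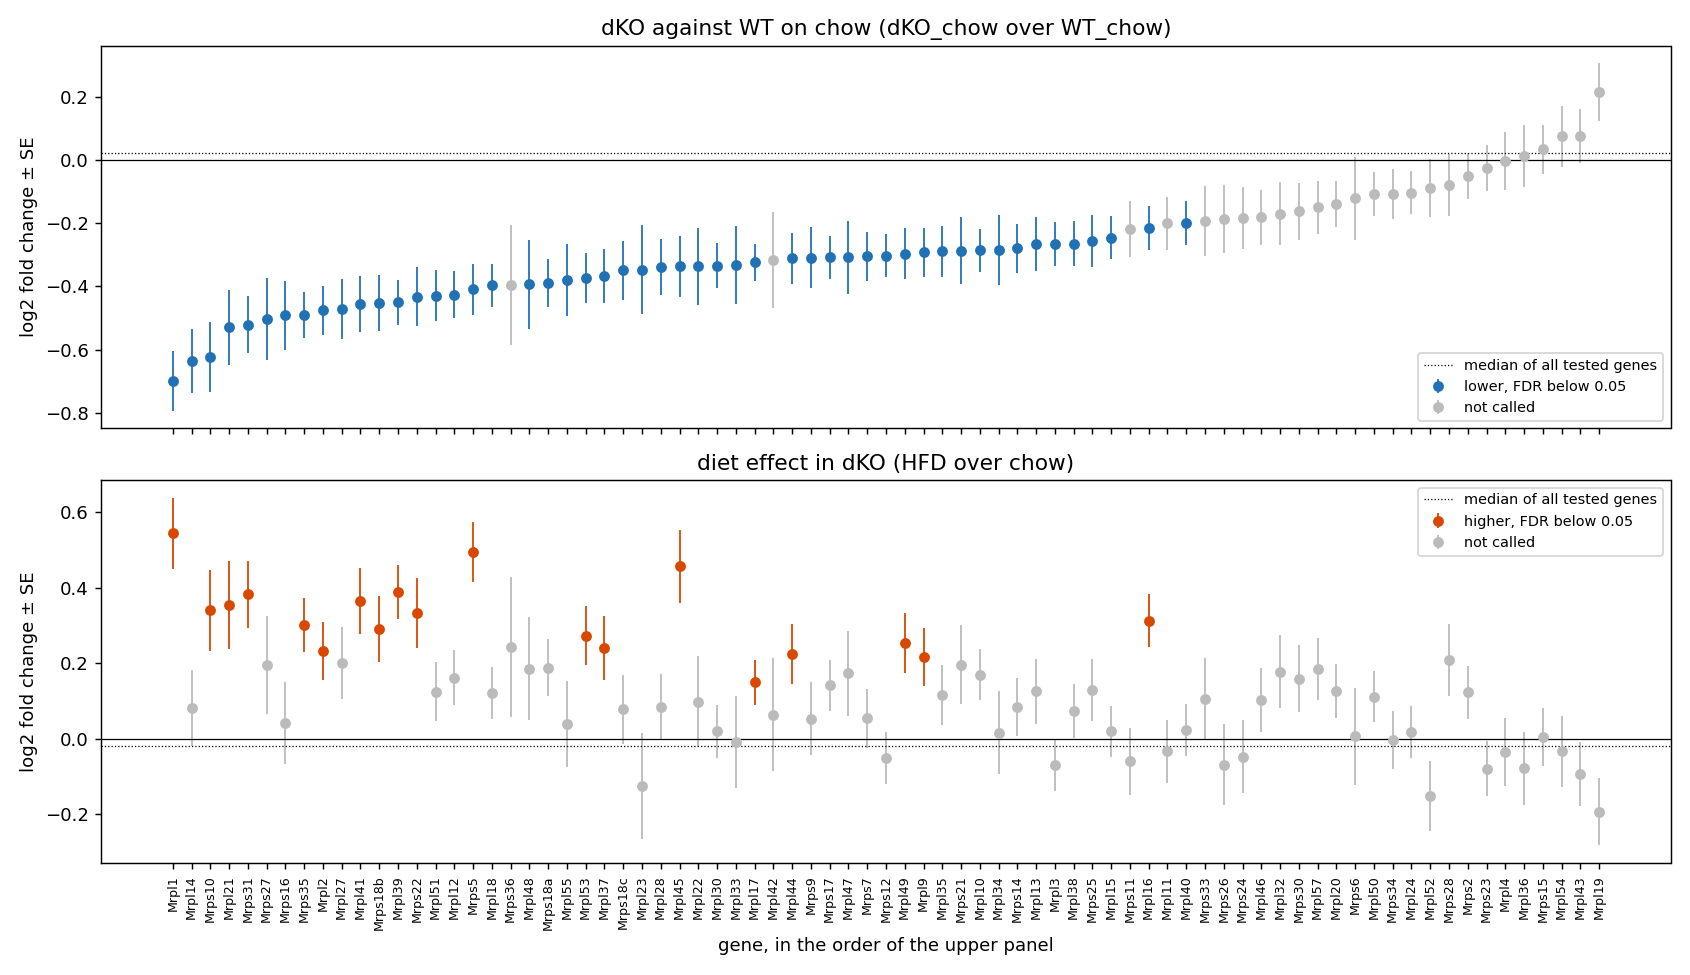
Log2 fold change ± SE of each of the 77 genes in dKO_chow over WT_chow (upper panel) and in dKO_HFD over dKO_chow (lower panel), in the same gene order; both panels use the dKO_chow mice, so a low value above and a high value below share these mice. Coloured points are genes called at an FDR below 0.05, 51 lower in the upper panel and 19 higher in the lower one (5 higher and 4 lower there with library totals alone), and the dotted line is the median of all tested genes.

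Other cell types moved with this comparison, and their part in it was not tested. In dKO_chow against WT_chow, 8 of 12 hepatocyte markers were lower (summed level 88630 to 100400 CPM against 128100 to 131200). Of the macrophage markers 11 of 12 were higher (1105 to 1372 CPM against 380.9 to 705.2), of the neutrophil markers 11 of 11 tested (145.4 to 479.8 CPM against 2.898 to 29.32), of the cholangiocyte markers 9 of 9 tested (466.4 to 843.4 CPM against 45.02 to 53.0) and of the lymphocyte markers 6 of 9 tested (11.3 to 18.31 CPM against 4.257 to 7.339). Ly6g, a surface marker of neutrophils, was at 0 in each WT_chow library. In bulk liver, fewer cells of a type and less mRNA per cell cannot be told apart. Scaling by library totals alone raised the median of all tested genes to 0.16 and left 26 of the 77 genes lower and 1 higher. Relative to the median of all tested genes, the median of the 77 genes was -0.33 with TMM factors and between -0.35 and -0.29 under the 10 alternative settings.

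On the high-fat diet, double knockout livers had more mRNA of some of these genes than double knockout livers on chow. Of the 77 genes 19 were called higher and 0 lower, beside 19.4% of all tested genes called higher, 20.5% called lower and 40% in either direction, so the share of genes that rose was close to that of all genes. The log2 fold change was positive for 61 genes, with a median of 0.12 beside -0.02 over all tested genes. With library totals alone the median of the 77 genes turned to -0.0044, that of all tested genes moved to -0.14, and 5 genes were called higher and 4 lower; relative to all tested genes the median stayed between 0.13 and 0.16 with TMM factors and under the 10 alternatives. For 15 genes the CPM of the 2 diets did not overlap, beside 31.6% of all tested genes.

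Mrpl1 rose most. It was at 29.4, 33.7, 30 and 21.95 CPM in dKO_HFD, each above the dKO_chow mice, with the fourth mouse closest to them (log2 fold change 0.54, SE 0.0941, FDR 0.00015). Mrps5, a conserved protein of the mRNA channel, had the lowest FDR. Its level was 13.7, 12.7, 14 and 12.7 CPM in dKO_chow and 19.9, 19.8, 18.6 and 16.4 CPM in dKO_HFD, without overlap (log2 fold change 0.49, SE 0.0791, FDR 6.94e-05). In WT mice it was at 16.6, 18.5, 18.7 and 16.7 CPM on chow and 18.3, 18.6, 18.6 and 16.96 CPM on the high-fat diet, and the range of the dKO_HFD mice overlapped both. Mrpl45, which holds the ribosome to the inner membrane, rose from 18.4, 21.1, 18.8 and 22.1 CPM to 30.6, 29.6, 29.7 and 20.3 CPM (log2 fold change 0.46, FDR 0.000813). Here the fourth dKO_HFD mouse remained among the dKO_chow mice. Mrpl39, a protein related to threonyl-tRNA synthetase that lies near the exit tunnel, rose from 31.5, 31.2, 32.8 and 31.1 CPM to 45.5, 43.3, 42.3 and 34.4 CPM without overlap (log2 fold change 0.39, FDR 0.00023). The 19 genes included 13 of 48 Mrpl and 6 of 29 Mrps genes.

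**Figure D3:**
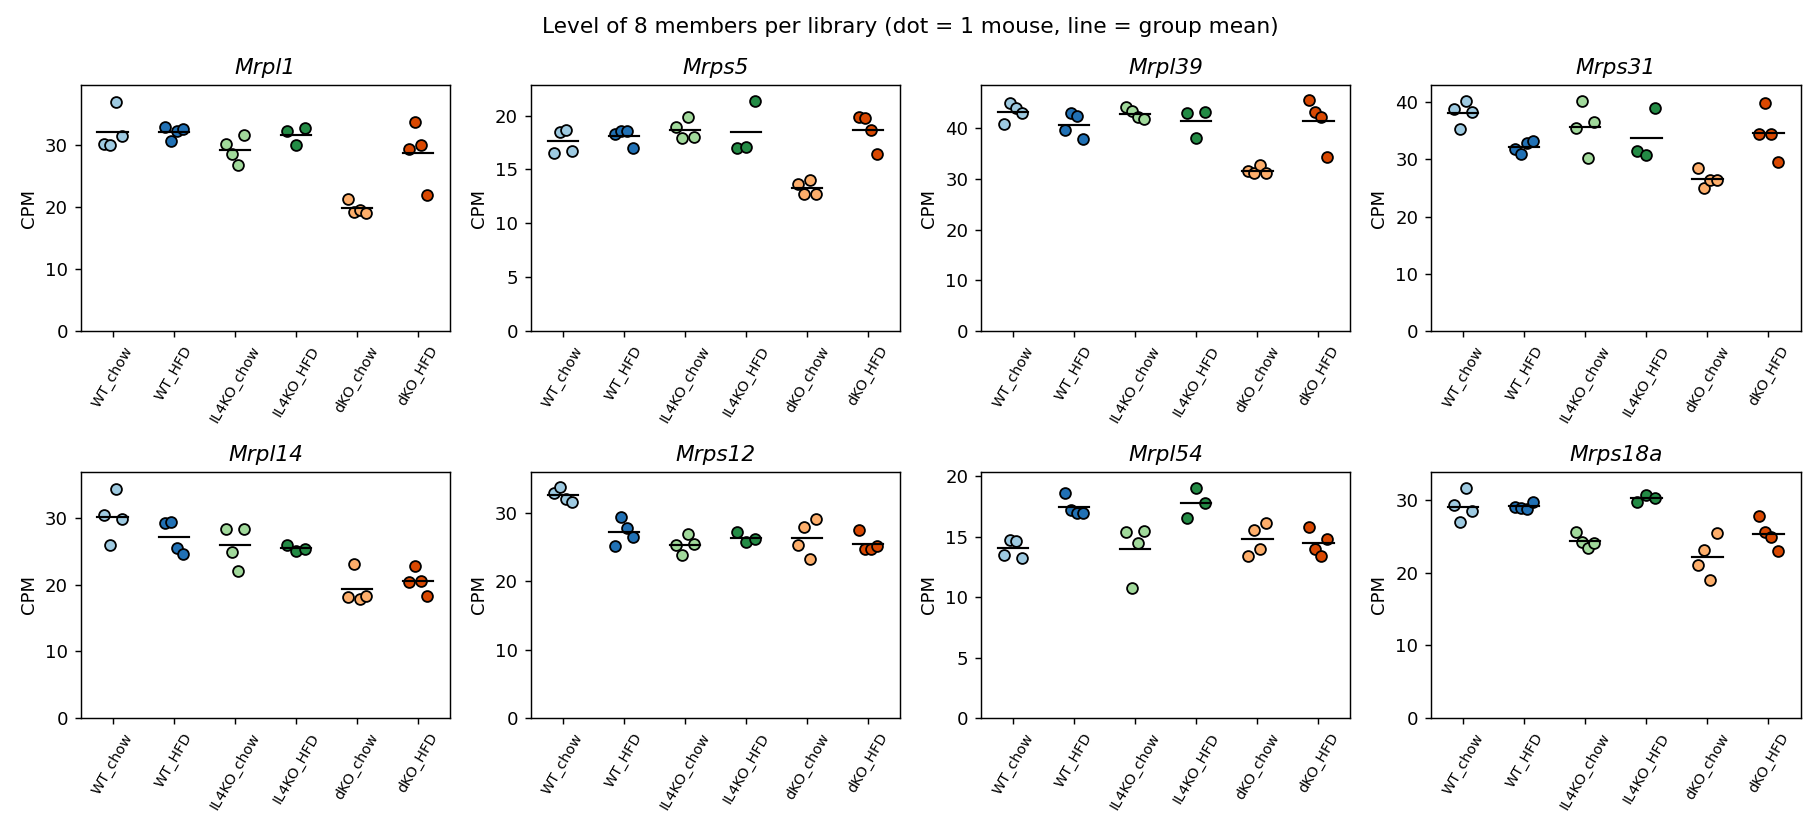
CPM of 8 genes in each library, with 1 dot per mouse and a line at the group mean; vertical axes start at 0 and the 6 groups stand on the horizontal axes. Mrpl1, Mrps5, Mrpl39 and Mrps31 are lowest in dKO_chow, Mrpl14 stays low in dKO_HFD, Mrps12 is highest in WT_chow, and Mrpl54 and Mrps18a show the diet differences given in the text.

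The fourth dKO_HFD mouse stood apart in its markers. Its neutrophil marker level, centred and on the log2 scale, was 2.24, the highest of its group, where the lowest was -1.296. The group mean of -0.3966 ± 1.758 (SD, n = 4) includes this mouse. It was the lowest of its group for Mrpl1, Mrps5, Mrpl39 and Mrpl45. Without it, 4 genes in place of 11 were called in dKO_HFD against WT_HFD. In dKO_HFD against dKO_chow, 6 of 12 hepatocyte markers were higher, and 12 of 12 macrophage, 11 of 11 tested neutrophil, 9 of 9 tested cholangiocyte and 7 of 9 tested lymphocyte markers were lower. The part of these markers in the rise of the 19 genes was not tested.

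The diet response of the double knockout differed from that of the wild type for 11 of the 77 genes, and each was more positive in the double knockout. Of all tested genes 25.2% were called in either direction and 12.6% in this direction. The share of the 77 genes called was thus close to that of all genes in this direction. The test is that of the difference between the diet effects. Mrpl21 had the largest difference. It was at 8.97, 9.05, 8.70 and 7.33 CPM in WT_chow, 7.37, 6.08, 6.78 and 7.63 CPM in WT_HFD, 6.13, 5.86, 5.14 and 6.44 CPM in dKO_chow and 7, 8.65, 7.34 and 7.03 CPM in dKO_HFD. Its log2 fold change with the diet was -0.29 in the wild type (FDR 0.102, not called, groups overlapping) and 0.35 in the double knockout, a difference of 0.64 (SE 0.168, FDR 0.0106). Mrps31, a small subunit protein specific to mitochondria, was at 38.8, 35.4, 40.2 and 38.2 CPM in WT_chow, 31.8, 30.9, 32.8 and 33.3 CPM in WT_HFD, 28.5, 25.1, 26.4 and 26.4 CPM in dKO_chow and 34.5, 39.9, 34.4 and 29.6 CPM in dKO_HFD. The diets did not overlap within either genotype and stood in opposite order, although the diet effect in the wild type was not called (-0.25, FDR 0.0599; difference 0.63, SE 0.127, FDR 0.00265). Mrpl1 (difference 0.54, FDR 0.00758) and Mrpl39 (difference 0.47, FDR 0.00338) had diet effects of 0.00 and -0.09 in the wild type, neither of them called. The other called genes were Mrps22, Mrps5, Mrps18b, Mrpl2, Mrpl53, Mrps35 and Mrpl38. Over the 10 alternative settings and 23 left-out libraries, the call of Mrpl38 was lost in 13 (FDR up to 0.369) and that of Mrps35 in 11 (FDR up to 0.329). By structure, 4 of 10 small subunit proteins listed as specific to mitochondria were among the 11. They include Mrps18b, a paralog of bacterial S18 that was listed in this class. Of the small subunit proteins listed with a bacterial counterpart 1 of 16 was among the 11, and of the large subunit proteins 3 each of the 30 and 20. The differences between these classes were not tested. With library totals alone 5 genes were more positive and 2 more negative in the double knockout, and with upper quartile factors, limma-voom and the compared groups alone 1 gene was called more negative, beside 8, 11 and 13 more positive. In place of 11 genes, 18 were called without the fourth dKO_HFD mouse and 17 without the second IL4KO_HFD mouse. With library totals alone the median of the 77 genes was 0.0043, beside 0.16 with TMM factors.

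On the high-fat diet fewer of the genes were called between the double knockout and the wild type. Of the 77 genes 11 were lower in dKO_HFD than in WT_HFD and 0 higher, beside 11.6% of all tested genes called lower, 12.9% higher and 24.5% in either direction. The median log2 fold change was -0.10, beside 0.01 over all tested genes, and 67 values were negative. The groups did not overlap for 13 genes, beside 25% of all tested genes. Mrpl12, the stalk protein that recruits translation factors and is also known to bind mitochondrial RNA polymerase, had the lowest FDR. Its level was 88.3, 92.2, 79.2 and 80.6 CPM in WT_HFD and 69.1, 67.8, 62.8 and 65.5 CPM in dKO_HFD, without overlap (log2 fold change -0.36, SE 0.0737, FDR 0.00144). Mrpl14 was at 29.3, 29.5, 25.6 and 24.7 CPM in WT_HFD and 20.4, 22.9, 20.5 and 18.3 CPM in dKO_HFD, so that it remained low on both diets (log2 fold change -0.41, FDR 0.00627). Mrpl23, which lines the exit tunnel, was the largest by size and one of the least abundant, at 5.70, 4.93, 4.44 and 4.74 CPM against 3.16, 3.67, 3.48 and 3.83 CPM (log2 fold change -0.49, FDR 0.0158). Without the first WT_HFD mouse this call was lost. In place of 11 genes, 4 were called without the fourth dKO_HFD mouse, 6 without the third, 5 without the first or the second WT_HFD mouse, and 7 without the third or the fourth. Of the 11 genes, 9 were also lower in dKO_chow than in WT_chow, where 51 of all 77 genes were lower. Most of any 11 of the 77 genes would thus tend to be shared. That comparison shares no library with this one, but both come from the same fit with a shared estimate of spread. The matching share of all tested genes is not given, so the overlap is not read as independent agreement. The remaining 2 were Mrps6 and Mrpl54, whose calls were lost in 9 and 10 of the alternative settings and left-out libraries. Mrpl54 was at 18.6, 17.2, 16.9 and 16.96 CPM in WT_HFD against 15.8, 14.01, 13.4 and 14.8 CPM in dKO_HFD. In dKO_HFD against WT_HFD 0 of 12 macrophage and 0 of 11 tested neutrophil markers were called, and 7 of 9 cholangiocyte markers were higher. Summed neutrophil markers spread from 2.936 to 66.63 CPM in dKO_HFD. Stellate cell and fibroblast markers summed to 278.5 to 400.9 CPM against 476.8 to 657 in WT_HFD. Hepatocyte markers (134700 to 149200 against 122700 to 139400) and lymphocyte markers (3.237 to 12.26 against 4.322 to 4.907) overlapped. Their part in the 11 calls was not tested.

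Against the IL-4 knockout, the double knockout on chow had 24 of the 77 genes lower and 0 higher, beside 22.2% of all tested genes called lower, 23% higher and 45.2% in either direction. The median was -0.14, beside 0.01 over all tested genes. The groups did not overlap for 20 genes, beside 45.8% of all tested genes. Mrpl1 (-0.56), Mrps5 (-0.49), Mrpl39 (-0.44) and Mrps31 (-0.42) had the largest log2 fold changes, with FDR from 5.32e-05 to 0.000676. Mrpl39 was at 44.2, 43.4, 42.2 and 41.8 CPM in IL4KO_chow, within the range of its WT_chow levels and above each dKO_chow mouse. In this comparison 7 genes were lower and 5 higher with library totals alone. Here too other cell types moved: 9 of 12 hepatocyte markers were lower in dKO_chow (88630 to 100400 CPM summed, against 104700 to 133400 in IL4KO_chow). Of the macrophage markers 12 of 12 were higher (1105 to 1372 CPM against 382.1 to 518.1), of the neutrophil markers 11 of 11 tested (145.4 to 479.8 against 1.811 to 16.3), of the cholangiocyte markers 9 of 9 tested (466.4 to 843.4 against 37.84 to 44.29) and of the lymphocyte markers 6 of 9 tested (11.3 to 18.31 against 3.204 to 8.128). Their part in the 24 calls was not tested. On the high-fat diet 1 of the 77 genes differed, beside 2.51% of all tested genes called, 0.946% higher and 1.56% lower. The gene was Mrpl17, a protein at the exit tunnel, at 54.2, 52.6 and 51.01 CPM in the 3 IL4KO_HFD mice and 45.5, 41.3, 42.2 and 42.4 CPM in the 4 dKO_HFD mice (log2 fold change -0.30, FDR 0.0187). Its groups did not overlap, as for 15 of the 77 genes and 11.4% of all tested genes, but the call was lost in the fit of the compared groups alone, with thinned counts and without any of 3 single mice (the first or second IL4KO_HFD or the second dKO_HFD mouse). Without the third IL4KO_HFD mouse 3 genes were called.

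Few of the genes were called between the IL-4 knockout and the wild type. On chow 4 of the 77 genes were lower and 0 higher, beside 3.68% of all tested genes called lower, 5.93% higher and 9.61% in either direction. The log2 fold change was nevertheless negative for 70 genes, with a median of -0.13 beside -0.01 over all tested genes, and the groups did not overlap for 12 genes (18.5% of all tested genes). The 4 genes were Mrps12, Mrps18a, Mrpl33 and Mrpl48. Mrps12, the conserved protein of the decoding centre, was at 25.3, 23.8, 26.9 and 25.5 CPM against 32.9, 33.8, 32.1 and 31.6 CPM in WT_chow, without overlap (log2 fold change -0.36, SE 0.0714, FDR 0.00219). Mrpl48 was at 6.58, 6.95, 4.72 and 6.82 CPM against 9.16, 9.79, 8.79 and 7.61 CPM (log2 fold change -0.49, FDR 0.0426), and 1 IL4KO_chow mouse lay far below the other 3. Mrpl33 was at 10.9, 10.6, 9.58 and 9.33 CPM against 12.02, 12.8, 12.3 and 17.2 CPM (log2 fold change -0.42, FDR 0.0454). The fourth WT_chow mouse stood above the other 3, and the call was lost without it and without each of several others, among them each IL4KO_chow mouse. Over the 10 alternative settings and 23 left-out libraries, the calls of Mrpl48 and Mrps18a were lost in 9 each. In place of 4 genes, 1 was called without the second, the third or the fourth IL4KO_chow mouse, 2 without the second or the third WT_chow mouse, and 7 without the third dKO_chow mouse, which enters through the shared estimate of spread. On the high-fat diet 0 of the 77 genes were called by edgeR, DESeq2 or limma (1 by edgeR without the second IL4KO_HFD mouse), beside 3.02% of all tested genes (1.73% higher, 1.29% lower), 3 had an unadjusted p below 0.05, and the median was -0.02. The groups did not overlap for 9 genes, beside 13.6% of all tested genes. The interaction of IL-4 knockout and diet gave 0 calls with edgeR (0.0465% of all tested genes, 0.0155% higher and 0.031% lower), 1 call with DESeq2 and 0 with limma, and its median was 0.10. In edgeR's interaction test 12 genes had an unadjusted p below 0.05. The shares of all tested genes at this unadjusted level are not given, so the counts of 3 and 12 are not read as a result about the 77 genes.

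The diet alone moved few of these genes in the wild type and the IL-4 knockout. In the wild type 3 rose and 2 fell, beside 9.63% of all tested genes called higher, 9.84% lower and 19.5% in either direction, and the median was -0.05. The diets did not overlap for 9 genes, beside 24.3% of all tested genes. Cell type markers moved here too: stellate cell and fibroblast markers summed to 476.8 to 657 CPM in WT_HFD against 316.4 to 387.9 in WT_chow. Cholangiocyte markers summed to 70.98 to 105.4 CPM against 45.02 to 53.0. The summed hepatocyte, macrophage, neutrophil, lymphocyte and endothelial markers overlapped between the diets. The part of the markers in these calls was not tested. Mrps28 rose from 15.3, 16.4, 16.1 and 15.1 CPM to 17.9, 21.5, 19.04 and 21.97 CPM (log2 fold change 0.36, FDR 0.0146), and Mrpl16, a conserved protein near the tRNA sites, from 29.6, 31.6, 32.3 and 28 CPM to 41.1, 37.3, 36.7 and 35.3 CPM (0.31, FDR 0.00469). In both genes the diets did not overlap. Mrpl54 rose by 0.31 (FDR 0.0287), from 13.5, 14.8, 14.7 and 13.2 CPM. Mrps12 was lower on the diet, at 25.2, 29.5, 27.8 and 26.6 CPM (log2 fold change -0.26, FDR 0.0118), as was Mrpl38 (-0.22, FDR 0.0396), whose call was lost with library totals alone, without a filter, in the compared groups alone and without any of 5 single WT mice. In place of 5 genes, 3 were called without the first WT_HFD mouse and 8 without the fourth dKO_HFD mouse. The comparisons of Mrps12 by diet and by IL-4 genotype share the WT_chow mice, in which it was highest. In the IL-4 knockout 5 genes rose and 0 fell, beside 5.14% of all tested genes called higher, 3.94% lower and 9.08% in either direction, with a median of 0.05. The diets did not overlap for 10 genes (19.6% of all tested genes). Mrpl17 rose from 41.4, 40.9, 44.5 and 43.3 CPM to 54.2, 52.6 and 51.01 CPM (log2 fold change 0.31, FDR 0.00587) and Mrps18a from 25.6, 24.3, 23.4 and 24.1 CPM to 29.7, 30.7 and 30.4 CPM (0.31, FDR 0.0254), both without overlap. The others were Mrpl20 (0.29, FDR 0.0271), Mrpl45 (0.38, FDR 0.0313) and Mrpl54 (0.35, FDR 0.0479). Over the 10 alternative settings and 23 left-out libraries, the call of Mrpl54 was lost in 20 and those of Mrpl45 and Mrps18a in 7 each. In place of 5 genes, 1 was called without the third IL4KO_chow mouse or without the first or the second IL4KO_HFD mouse, and 2 without the second IL4KO_chow mouse. In the wild type Mrpl45 was at 0.28 (FDR 0.0505) with the diet, in the IL-4 knockout at 0.38 and in the double knockout at 0.46. Its diet effect in either knockout was not called as different from that in the wild type.

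By role, the proteins around the polypeptide exit tunnel and the membrane anchor were among those that fell in the double knockout on chow. Of 8 such genes 7 were lower in dKO_chow than in WT_chow, namely Mrpl39 (-0.45), Mrpl23 (-0.35), Mrpl45 (-0.34), Mrpl22 (-0.34), Mrpl17 (-0.32), Mrpl44 (-0.31) and Mrpl47 (-0.31), beside 21.9% of all tested genes called lower. With upper quartile factors 4 of the 8 were called, and with library totals alone or thinned counts 3. The calls of Mrpl22, Mrpl23 and Mrpl47 rested on FDR from 0.0277 to 0.048, and each was lost when certain single WT_chow or dKO_chow mice were left out. Mrpl24, the remaining gene, was at 47.5 ± 2.53 CPM (SD, n = 4) in WT_chow and 44.2 ± 4.22 CPM (SD, n = 4) in dKO_chow (log2 fold change -0.10, FDR 0.233). In the L7/L12 stalk and its base, which recruit elongation factors, Mrpl12 fell from 74.8, 79.9, 89.8 and 74.04 CPM to 56.7, 59.9, 55.1 and 65.4 CPM (-0.43, FDR 9.45e-05) and Mrpl10 fell (-0.29, FDR 0.00177). Mrpl11 had -0.20 (FDR 0.0546) and was not called. With the diet in the double knockout the FDR was 0.0504 for Mrpl10, 0.0831 for Mrpl12 and 0.784 for Mrpl11, and 1 or 2 of the 3 were called when certain single mice were left out.

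The 3 paralogs of bacterial S18 sit in different places of the mitochondrial ribosome, Mrps18a in the large subunit and Mrps18b and Mrps18c in the small subunit. All 3 were lower in dKO_chow than in WT_chow: Mrps18a with a log2 fold change of -0.39 (FDR 0.000304), Mrps18b with -0.45 (FDR 0.000296) and Mrps18c with -0.35 (FDR 0.00435). Mrps18b was at 37, 33.3, 38.5 and 38.5 CPM in WT_chow, 26.4, 26.9, 23.4 and 30.8 CPM in dKO_chow and 34.4, 31.1, 31.6 and 34.7 CPM in dKO_HFD. It was the 1 paralog that was called with the diet in the double knockout (0.29, FDR 0.011); Mrps18a was at 0.19 (FDR 0.05005) and Mrps18c at 0.08 (FDR 0.532), and the difference between the paralogs was not tested. Mrps12 was also lower in dKO_chow (-0.30, FDR 0.00117). Mrps36, which despite its symbol is known as a subunit of the 2-oxoglutarate dehydrogenase complex, was not called in any comparison; it was at 2.84 ± 0.281 CPM (SD, n = 4) in WT_chow and 2.15 ± 0.342 CPM (SD, n = 4) in dKO_chow (FDR 0.0938). Ict1, the large subunit protein that frees stalled peptides and is now named Mrpl58, has no Mrpl symbol in the deposited table; its log2 fold change was -0.21 (FDR 0.0624).

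Proteins of the same ribosome without an Mrp symbol were counted separately, in a list of 5 genes. Ict1, given above and not called in dKO_chow against WT_chow, is not among these 5. All 5 were lower in dKO_chow than in WT_chow, among them Aurkaip1 (-0.44, FDR 1.65e-05) and Ptcd3 (-0.37, FDR 0.00111), a pentatricopeptide protein of the small subunit, beside 21.9% of all tested genes called lower. Of the 5, 2 were called with library totals alone, and with upper quartile factors, the deposited log2 values or thinned counts 3. Ptcd3 was at 39.2, 38.5, 44.7 and 39.5 CPM in WT_chow, 33.8, 31.2, 31.04 and 29.7 CPM in dKO_chow and 47.8, 51.1, 44.3 and 40.5 CPM in dKO_HFD, with no overlap between dKO_chow and either group. Dap3, a GTP-binding protein of the small subunit, fell by 0.21 on the log2 scale (FDR 0.0089). With the diet in the double knockout Ptcd3 (0.55) and Dap3 (0.22) rose and Gadd45gip1 (-0.21, FDR 0.0473) fell.

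Other steps of mitochondrial gene expression were counted over lists chosen for this tissue with earlier results of these data known. Of 17 mitochondrial translation factors 10 were lower in dKO_chow than in WT_chow and 0 higher, beside 21.9% of all tested genes called lower and 24.4% called higher. Among them were Gfm1, the elongation factor that moves the ribosome along the mRNA, from 96.6, 92.2, 106 and 99.6 CPM to 54.9, 58.9, 51.8 and 51.5 CPM (-0.86, FDR 1.79e-06), the recycling factor Gfm2 (-0.60) and the mRNA stabilising protein Lrpprc (-0.52). Gfm1 was at 121, 125, 117 and 77.5 CPM in dKO_HFD, where the first 3 mice exceeded every WT_chow mouse and the fourth did not. Of 20 mitochondrial aminoacyl-tRNA synthetases and amidotransferase subunits 13 were lower and 1 higher, among the lower ones Nars2 (-0.76), Gatb (-0.74) and Iars2 (-0.54). By absolute size the change was largest for Lars2, followed by Nars2, Gatb and Pars2. The summed level of this list was uneven in dKO_HFD, from 450.5 to 1887 CPM, against 418.7 to 565.1 CPM in dKO_chow. A sum is weighted to the most abundant genes. The mean log2 level of the list, centred on all libraries, ran from -0.114 to 0.113 in dKO_HFD and from -0.315 to -0.164 in dKO_chow. Of 20 genes of mitochondrial DNA transcription and RNA processing 10 were lower and 0 higher, among them Hsd17b10, a subunit of mitochondrial RNase P (-1.08, FDR 0.000814). Of 27 genes of ribosome assembly and rRNA modification 7 were lower and 1 higher: the GTPase Mtg1 (-0.56) and C1qbp (-0.47) fell, and the helicase Ddx28 rose (0.44, FDR 0.00121). The share of assembly genes called lower was near that of all tested genes. In either direction, 6 translation factors and 5 synthetases were called with library totals alone. With the diet in the double knockout, 7 translation factors were higher and 1 lower, 7 synthetases higher and 0 lower, 12 transcription and processing genes higher and 0 lower, and 6 assembly genes higher and 0 lower, beside 19.4% of all tested genes called higher. For the assembly genes this share was near that of all tested genes, and 2 of them were called with library totals alone or thinned counts and 3 with upper quartile factors. Of the synthetases 4 were called with library totals alone or with the deposited log2 values. These counts share the dKO_chow mice with those above. The mRNAs of the mitochondrial genome were not analysed here.

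Regulators of mitochondrial gene expression did not move in one direction. Ppargc1a, the coactivator of mitochondrial biogenesis, was at 19.2, 23.2, 18.02 and 12.97 CPM in WT_chow and 6.08, 5.56, 7.99 and 5.32 CPM in dKO_chow (-1.57, FDR 0.000121). Its relative Pprc1 was higher in dKO_chow (0.78, FDR 0.000167). The nuclear receptor Esrrg fell by 3.38 on the log2 scale (FDR 1.44e-05) from low levels, 4.07, 3.67, 3.08 and 1.97 CPM in WT_chow. Among factors of the motifs shown above, Nrf1 was higher (0.32, FDR 0.042), the GABP subunit Gabpa lower (-0.19, FDR 0.0312), and Yy1 at -0.05 (FDR 0.625). In total 2 of 11 regulators were higher and 3 lower. Of all tested genes 24.4% were called higher, 21.9% lower and 46.3% in either direction, so the share of regulators called was close to that of all genes. Without the second WT_chow or the fourth dKO_chow mouse 3 regulators were called in all. With the diet in the double knockout 5 were higher and 2 lower, beside 19.4% of all tested genes called higher, 20.5% lower and 40% in either direction. The ribosomal protein genes with and without a motif match had like medians in dKO_chow against WT_chow. They were -0.31 for 13 genes with the NRF1 letters and -0.31 for 55 without, -0.34 for 25 with the ETS letters and -0.30 for 43 without, and -0.30 for 12 with the YY1 letters and -0.32 for 56 without. Mrpl12, Mrpl45, Mrps18a and Mrps22, whose stretches are printed above, each fell in dKO_chow (-0.43, -0.34, -0.39 and -0.43).

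The respiratory chain, for which these ribosomes make subunits, and the ribosome of the cytosol gave a measure of comparison. Of 78 tested nuclear genes for subunits of the respiratory chain and the ATP synthase, 72 were lower in dKO_chow than in WT_chow and 0 higher (median -0.53). Of all tested genes 21.9% were called lower there and 24.4% higher. With the diet in the double knockout 49 of the 78 were higher and 1 lower (median 0.29), beside 19.4% of all tested genes called higher and 20.5% lower. The medians of the 77 mitochondrial ribosomal protein genes were smaller in size in both comparisons (-0.30 and 0.12). Of 82 tested cytosolic ribosomal protein genes 8 were lower and 3 higher in dKO_chow against WT_chow (median -0.01), beside 46.3% of all tested genes called in either direction. With the diet in the double knockout 67 of the 82 were lower and 0 higher (median -0.46), beside 20.5% of all tested genes called lower. In the wild type 44 were lower and 0 higher with the diet (median -0.37), beside 9.84% of all tested genes called lower. In IL4KO_chow against WT_chow 36 cytosolic genes were lower (median -0.35), beside 3.68% of all tested genes called lower. Differences between these gene groups are descriptions of the medians and were not tested.

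**Figure D4:**
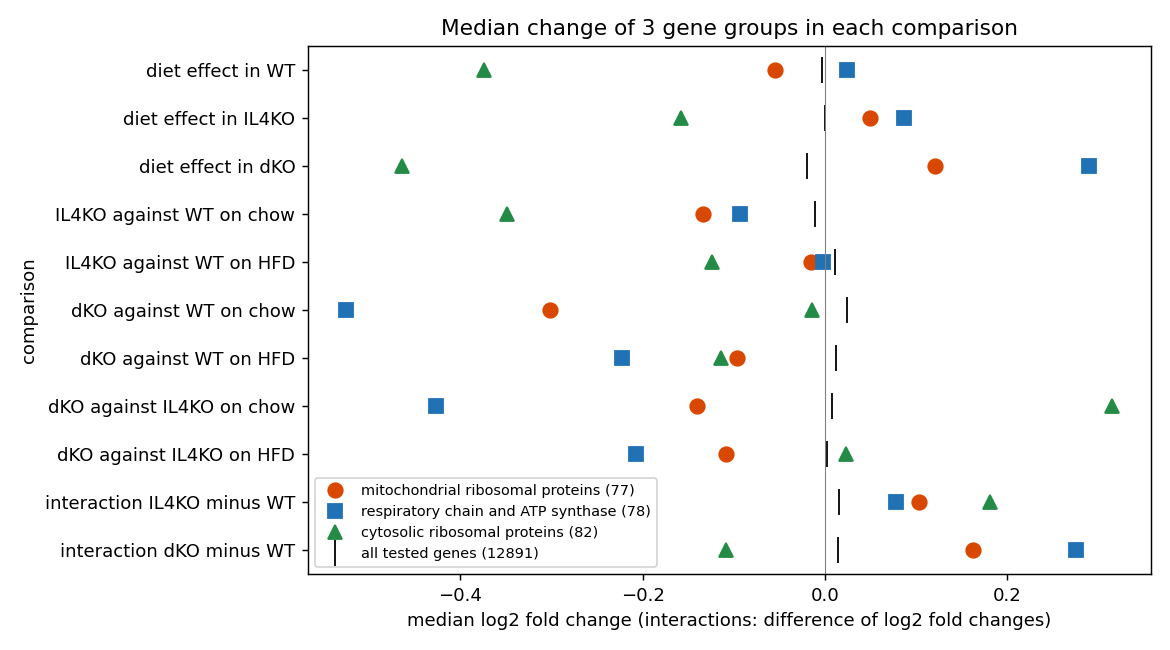
Median log2 fold change (horizontal axis) of the 77 mitochondrial ribosomal protein genes, 78 respiratory chain and ATP synthase genes, 82 cytosolic ribosomal protein genes and all 12891 tested genes in each comparison (vertical axis). In dKO against WT on chow the mitochondrial ribosomal median is -0.30, the respiratory chain median -0.53 and the cytosolic ribosomal median -0.01; comparisons that share a group are not independent.

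Some of these genes overlap others in the genome. All 77 matched GENCODE M21 on the same build, on 17 chromosomes, and 16 had more than 10% of their exon bases inside exons of another gene, 12 on the opposite strand and 4 on the same strand. Among them were Mrpl53, whose exons lie 100% within those of Gm42688, Mrps18b (59.1% opposite Gm16279), Mrps25 (58.2% opposite Nr2c2), Mrpl19 (39.2% opposite Gcfc2) and Mrpl12 (15.2% opposite Gm16755). The strand setting of the counting is not given in the sources used here, so the values of these 16 genes are uncertain. Without them 40 of 61 genes were lower in dKO_chow against WT_chow (median -0.30) and 17 of 61 higher with the diet in the double knockout (median 0.12).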

How the data were processed

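Liver RNA of 23 mice was sequenced; the labels' protocols name a strand-specific mRNA kit. The authors deposited estimated counts per gene, which are not all whole numbers (88.3% to 94.1% of values per library were whole), and a table of log2 expression values for 14078 genes. The submitters' processing notes name bcl2fastq 2.16, TopHat2 2.0.8, Partek and mm10; which annotation and strand setting the counting used is not stated in them. Estimated counts were rounded and tested with edgeR 4.0.16 in R 4.3.3 (TMM scaling, the default filter on low counts, quasi-likelihood test with 17 residual degrees of freedom, Benjamini-Hochberg adjustment over 12891 genes), in 1 fit over the 6 groups with 9 pairwise contrasts and 2 interactions. CPM are scaled by TMM factors, and fold changes are fitted log2 values. The fit was tested on simulated data. Alternatives were other scalings, other filters, DESeq2 1.42.0, limma 3.58.1 on counts (voom) and on the deposited log2 values, the compared groups alone, thinned counts and leaving out each library. In each comparison the text names up to 4 called genes per direction by size of change (mean of at least 2 CPM) and the 2 with the lowest FDR, the stalk and exit tunnel genes, Mrps12, the Mrps18 paralogs, Mrps36 and Ict1, and up to 4 genes per other list; remaining names were chosen after their values were seen. The members and lists were chosen with earlier results of these data known. Each mouse is a replicate, and replicate numbers follow the order of the samples.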

Additional observations from a re-analysis of the deposited data

Results flagged for a closer look

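Of 165 groups of 4 libraries examined (32 genes and the mean level of the 77 genes, in 5 groups), 8 held a library far from the other 3 by Dixon's criterion, which chance gives in about 1 in 20 groups. Mrpl33 was at 17.19 CPM in the fourth WT_chow mouse, against 12.02 to 12.8 in the others. In IL4KO_chow, Mrpl24 was at 44.04 CPM in the third mouse (others 45.88 to 46.19) and Mrpl48 at 4.719 CPM in the same mouse (others 6.585 to 6.954). In the fourth mouse of that group Mrpl27 was at 22.43 CPM (others 16.3 to 17.25) and Mrps36 at 1.671 CPM (others 2.69 to 2.86). In dKO_chow, Mrpl14 was at 23.18 CPM in the second mouse (others 17.86 to 18.39) and Mrpl16 at 23.4 CPM in the third (others 26.88 to 27.4). Mrpl45 was at 20.31 CPM in the fourth dKO_HFD mouse, against 29.59 to 30.64 in the others.

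The diet effect differed between the double knockout and the wild type in edgeR's interaction test for these genes, with the log2 difference (double knockout minus wild type) given for each: Mrpl21 0.6385, Mrps31 0.6275, Mrpl1 0.5426, Mrps22 0.4822, Mrpl39 0.475, Mrps5 0.4584, Mrps18b 0.4486, Mrps35 0.3087 and Mrpl38 0.2906. The calls of Mrpl38 and Mrps35 were lost in 13 and 11 of the alternative settings and left-out libraries.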

How the results depend on the processing

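Of 726 recomputed counts and medians, 663 stayed close to the main value under the 10 settings and 23 left-out libraries, and 63 did not. The cause was not tested. A count was close when equal or within a factor of 1.5, taken over both directions together. A median was close when it moved by less than 0.056, whatever its sign, so direction was not part of this rule for values that stayed close. With upper quartile factors, the called genes numbered 8 for the diet in WT, 11 for the diet in dKO and 12 for dKO against IL4KO on chow, and the medians were 0.04459 (diet in dKO), -0.2306 (dKO against WT on chow), -0.04916 (dKO against IL4KO on chow) and 0.09162 (interaction of dKO and diet). With library totals alone the counts were 9 (diet in dKO), 2 (IL4KO against WT on chow), 27 (dKO against WT on chow), 12 (dKO against IL4KO on chow), 2 (dKO against IL4KO on HFD) and 7 (interaction of dKO and diet). The medians were 0.1098 (diet in IL4KO), -0.004418 (diet in dKO, reversed), -0.1698 (dKO against WT on chow), -0.004151 (dKO against IL4KO on chow) and 0.004279 (interaction of dKO and diet). Without a filter on low counts 1 gene was called in IL4KO against WT on chow and 5 in dKO against WT on HFD, and with the strict filter (1 CPM) 8 for the diet in WT. DESeq2 called 1 in the interaction of IL4KO and diet. Limma-voom called 2 for the diet in IL4KO and 1 in IL4KO against WT on chow. Limma on the deposited log2 values called 12 (diet in dKO), 6 (dKO against WT on HFD) and 13 (dKO against IL4KO on chow), with medians of 0.05647 (diet in dKO), -0.2336 (dKO against WT on chow), -0.06099 (dKO against IL4KO on chow) and 0.09071 (interaction of dKO and diet). The compared groups alone gave 8 (diet in WT), 7 (dKO against WT on HFD) and 0 (dKO against IL4KO on HFD), and thinned counts gave 2 (diet in IL4KO), 0 (dKO against IL4KO on HFD) and 5 (interaction of dKO and diet).

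Leaving out 1 library at a time, the called genes ranged from 3 to 8 (diet in WT), 1 to 7 (diet in IL4KO), 14 to 25 (diet in dKO), 1 to 7 (IL4KO against WT on chow), 0 to 1 (the same on HFD), 43 to 56 (dKO against WT on chow), 4 to 12 (the same on HFD), 17 to 29 (dKO against IL4KO on chow), 0 to 3 (the same on HFD) and 8 to 18 (interaction of dKO and diet). The extremes came without the first WT_HFD mouse (3, diet in WT), the fourth dKO_HFD mouse (8, diet in WT; 4, dKO against WT on HFD; 18, interaction), the third IL4KO_chow mouse (1, diet in IL4KO), the fourth WT_chow mouse (7, diet in IL4KO), the second IL4KO_chow mouse (1) and the third dKO_chow mouse (7, IL4KO against WT on chow), the first IL4KO_HFD mouse (0, dKO against IL4KO on HFD) and the third IL4KO_HFD mouse (3, the same). The median in IL4KO against WT on HFD ran from -0.03297 to 0.01572, and that of the interaction of dKO and diet from 0.1364 to 0.2202. Of 83 called values of the single genes that the naming rule picked, which are not all called values, 38 stayed called under the 10 settings and 35 under those and every left-out library, and 0 reversed. Counts down to 12 per library limit the precision of the least abundant genes. No paired analysis was possible because the replicate numbers follow the order of the samples and mark no shared animal, litter or day.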
